A study of Mus musculus with 3 samples.

Results

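The T cell receptor V segments were read from blood mononuclear cells of female C57BL/6 mice. All features whose symbol starts with Trav or Trbv were taken, 163 of the 32285 features in the gene list: 128 Trav segments of the alpha chain and 35 Trbv segments of the beta chain. Each of 3 single-cell libraries stood for a group: young mice of 8 weeks with no treatment in the labels, aged mice of 16 months with none, and aged-GA mice of 16 months given glycyrrhizic acid (GA), a triterpenoid of licorice, for 1 month. Per the methods of the study the control mice were injected with PBS. Several mice per group gave blood, but each group was deposited as 1 library with no map from cells to mice. The differences below therefore compare libraries, and they carry counting error but no replicate error.

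An alpha chain gene is assembled in the thymus from a V and a J segment, and a beta chain gene from a V, a D and a J segment, each joined to a constant region (Trac, Trbc1 or Trbc2). The V segment forms most of the outer domain of the chain, including the loops that mainly touch the MHC molecule, while the third loop spans the junction. A T cell usually expresses 1 functional beta chain, so the spread of usage over V segments is a coarse view of the diversity of a T cell population. Some segments mark invariant T cells: Trav11 with Trbv13, Trbv29 or Trbv1 in invariant natural killer T cells, and Trav1 with Trbv19 or Trbv13 in mucosal-associated invariant T cells.

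Usage was summed over CD4 T cells (at least 2 UMIs of Cd3d, Cd3e and Cd3g in sum, at least 1 of Cd4 and 0 of Cd8a and Cd8b1) and CD8 T cells (the same Cd3 minimum, at least 2 UMIs of Cd8a and Cd8b1 and 0 of Cd4). A UMI is a molecular tag counted once per captured RNA molecule. The gates held 1124 CD4 and 1921 CD8 T cells in the young library, 708 and 968 in the aged library, and 1031 and 1936 in the aged-GA library. All 7 T cell markers (Cd3d, Cd3e, Cd3g, Trac, Trbc1, Trbc2 and Cd247) were found in both gates of every library. Cd3d, Cd3e and Cd3g are part of the gate rule, and genes of other cell types were found in the gates as well. The median depth was 4646 to 5423 UMIs per CD4 T cell and 6145 to 7766.5 per CD8 T cell. B cell, myeloid and red cell genes were higher in the gates of the older libraries. The summed level of 5 B cell genes was 1137, 2210 and 3292 CPM (a UMI count scaled to the total of the gate) in the CD4 gate of the young, aged and aged-GA libraries, and that of 4 myeloid genes was 726, 1796 and 2786 CPM. In the CD8 gate the B cell genes reached 705, 1184 and 1616 CPM and the myeloid genes 172, 1032 and 1848 CPM. The summed level of 2 red cell genes was 7880, 21769 and 23012 CPM in the CD4 and 7205, 16572 and 13744 CPM in the CD8 gate. Natural killer genes were low, at 12.5, 10.7 and 9.38 CPM in the CD4 and 20.5, 83.4 and 74.3 CPM in the CD8 gate. Gamma-delta T cell genes were at 22.6, 10.7 and 6.82 CPM in the CD4 and 15.95, 32.3 and 22.6 CPM in the CD8 gate. The sums of both lists were thus lower in CD4 and higher in CD8 T cells of the older libraries. The gamma-delta genes did not move together. Trdc was lower in the CD8 gate too (11.1, 10.1 and 6.44 CPM), where Tcrg-C1, Tcrg-C2 and Tcrg-C4 were higher. In the CD4 gate Tcrg-C2 was higher (0.641, 3.25 and 1.56 CPM), and Tcrg-C1 and Tcrg-C4 had no common direction. The part of all these genes in the results below was not tested, except by stricter gates. Those also required 0 UMIs of Cd79a, Cd79b, Lyz2 and Trdc (a B cell pair, a myeloid and a gamma-delta T cell gene). Values from the stricter gates are given where they differ.

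The libraries were read from the 3′ end of the RNA, and the V segment lies at the far 5′ end, so reads in a V segment were sparse. A read can be assigned to a segment only where its sequence differs from its copies. The ends of the Trbv segments that carry the results are shown to make this visible. Each line gives the last 75 coding bases in GRCm38 (GENCODE M21), 5′ to 3′ on the coding strand, with the codon of the conserved cysteine that opens the third loop in capitals.
Trbv12-2 (chr6:41119290-41119364, plus strand): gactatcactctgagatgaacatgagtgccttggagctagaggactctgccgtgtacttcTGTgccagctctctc
Trbv12-1 (chr6:41113993-41114067, plus strand): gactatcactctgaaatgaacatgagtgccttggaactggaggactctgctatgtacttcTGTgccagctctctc
Trbv2 (chr6:41047921-41047995, plus strand): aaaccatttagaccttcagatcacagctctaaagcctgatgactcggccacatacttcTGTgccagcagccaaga
Trbv19 (chr6:41178974-41179048, plus strand): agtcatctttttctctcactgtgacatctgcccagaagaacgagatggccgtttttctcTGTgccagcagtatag
Trbv13-2 (chr6:41121758-41121832, plus strand): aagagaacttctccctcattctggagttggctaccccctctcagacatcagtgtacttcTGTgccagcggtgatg
Trbv29 (chr6:41271807-41271881, plus strand): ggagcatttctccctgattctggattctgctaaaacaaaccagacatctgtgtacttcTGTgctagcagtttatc
Trbv31 (chr6:41557693-41557767, minus strand): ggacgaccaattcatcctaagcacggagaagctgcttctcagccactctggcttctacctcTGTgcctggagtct

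Trbv12-2 and Trbv12-1, older names V beta 5.1 and V beta 5.2, differ at 5 of the 75 bases shown. Trbv31 (V beta 14) is the only one of the 7 on the minus strand. Of the 35 Trbv segments, 22 are annotated as functional and 13 as pseudogenes. All 22 functional segments had a UMI in CD4 or CD8 T cells, and of the pseudogenes only Trbv24 had any (10 UMIs). The Trbv segments held 1583 UMIs in all.

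The Trav locus holds duplicated blocks of segments. To show how alike the copies are, the last 120 coding bases of Trav16 and its copies are given, with the bases that differ from Trav16 in capitals.
Trav16 (chr14:53743586-53743705, plus strand): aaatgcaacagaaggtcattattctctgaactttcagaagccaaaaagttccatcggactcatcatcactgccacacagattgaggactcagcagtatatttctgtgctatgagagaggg
Trav16n (chr14:53351502-53351621, plus strand): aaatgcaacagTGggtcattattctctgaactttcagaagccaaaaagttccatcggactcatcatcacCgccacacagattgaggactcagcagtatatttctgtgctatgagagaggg
Trav16d-dv11 (chr14:53047702-53047821, plus strand): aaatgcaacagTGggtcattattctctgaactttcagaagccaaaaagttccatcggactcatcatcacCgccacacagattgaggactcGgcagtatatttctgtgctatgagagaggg

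Trav16n differed from Trav16 at 3 of these bases and Trav16d-dv11 at 4. Position by position from the 3′ end, with no gaps allowed, 38 and 26 of 350 coding bases differed. The last exon was 301 bases long in Trav16 and 304 in Trav16n, so part of the 38 can come from this difference in length. The segments held 133 UMIs (Trav16), 123 UMIs (Trav16n) and 18 UMIs (Trav16d-dv11). For Trav11, the segment of invariant natural killer T cells, the copy Trav11d was identical at all 342 coding bases compared, and Trav11 held 3 UMIs and Trav11d 0. Trav11 usage could therefore not be measured here.

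A segment was scored by the share of its 50-base windows that no other Trav or Trbv segment holds. Other genes were not searched. All 22 functional Trbv segments scored 80% or more. Of the 108 functional Trav segments, 48 scored below 20%, and 34 of these were at 0 UMIs in CD4 and CD8 T cells of all libraries. The 45 segments from 20% to 80% held 1345 of the 1751 Trav UMIs and 1 of them was at 0. The remaining 15 held 278 UMIs and 1 was at 0. A level of 0 for a Trav segment thus went with a sequence shared with a copy, and Trav shares are shares of the assignable UMIs.

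**Figure D1:**
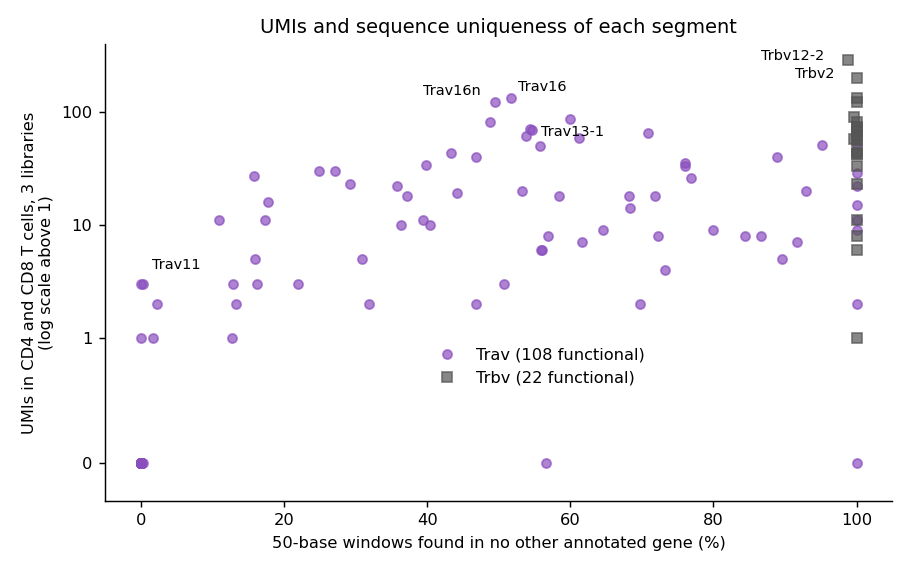
UMIs of each functional V segment, summed over CD4 and CD8 T cells of the 3 libraries (vertical axis, log scale above 1), against the share of its 50-base windows found in no other Trav or Trbv segment (horizontal axis, %). The axis label says annotated gene, but only Trav and Trbv segments were compared. The 22 Trbv segments sit at the right edge with at least 1 UMI each, whereas the Trav segments spread over the whole axis and 34 of the 48 below 20% are at 0.

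Beta chain V segments were detected in fewer T cells of the older libraries. A Trbv UMI was found in 21.98% of the CD4 T cells of the young library, against 16.2% in the aged and 16.0% in the aged-GA library (exact 95% intervals 19.6 to 24.5, 13.6 to 19.2 and 13.8 to 18.4). In CD8 T cells the shares were 22.3%, 13.0% and 12.04% (20.5 to 24.3, 11.0 to 15.3 and 10.6 to 13.6). The young interval lay above both others in each class, although the aged-GA cells were the deepest. B cells, which do not express the receptor, gave the background. A Trbv UMI was in 0.0452%, 0.136% and 0.208% of them, with a median of 3410, 3202 and 3840.5 UMIs per cell. Intervals here and below cover counting error only.

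With every cell thinned to 1000 UMIs, the share with a Trbv UMI was 5.52%, 3.11% and 2.82% for CD4 T cells, in the order young, aged, aged-GA. The CD8 values were 3.75%, 2.79% and 1.81%. The log2 ratio of aged-GA over young was -0.97 in CD4 (95% interval -1.60 to -0.35) and -1.05 in CD8 T cells (-1.63 to -0.48). For aged over young it was -0.83 in CD4 (-1.52 to -0.14) and -0.43 in CD8 T cells (-1.05 to 0.20). Aged-GA over aged was -0.14 in CD4 (-0.93 to 0.65) and -0.62 in CD8 T cells (-1.34 to 0.09), intervals that hold 0.

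The constant regions of the same chain moved less. Trbc1 and Trbc2 together were at 2595, 2312 and 2293 CPM in young, aged and aged-GA CD4 T cells and at 2310, 1812 and 1824 CPM in CD8 T cells. Per 100 constant region UMIs there were 1.99, 1.45 and 1.17 Trbv UMIs in CD4 T cells and 1.76, 1.24 and 0.860 in CD8 T cells. The order young, aged, aged-GA held in both classes. T cells in neither gate, with a Cd3 sum of at least 2 but no Cd4 and no Cd8 UMI, showed the same order at 1.90, 1.29 and 0.992. The gamma-delta T cell gene Trdc was at 70.6, 57.2 and 69.8 CPM in them, above its level in both gates of each library. The share of gamma-delta T cells among them was not tested.

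The alpha chain did not follow this order in every class. Per 100 Trac UMIs, the CD4 T cells of the young, aged and aged-GA libraries held 8.81, 5.48 and 7.496 Trav UMIs. The values were 8.74, 6.94 and 6.57 in CD8 T cells and 9.40, 7.77 and 8.02 in T cells in neither gate. The young library was highest each time, and the aged-GA library was above the aged library in CD4 T cells and in those in neither gate. Unthinned, a Trav UMI was in 21.4%, 13.7% and 18.04% of CD4 T cells, in 18.8%, 13.9% and 14.4% of CD8 T cells, and in 0.136%, 0.159% and 0.0946% of B cells. Thinned to 1000 UMIs, it was found in 5.08%, 3.81% and 5.53% of CD4 T cells and in 4.22%, 2.58% and 2.38% of CD8 T cells. Fewer receptor RNA molecules and fewer reads that reach the V segment cannot be told apart from V UMIs alone.

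**Figure D2:**
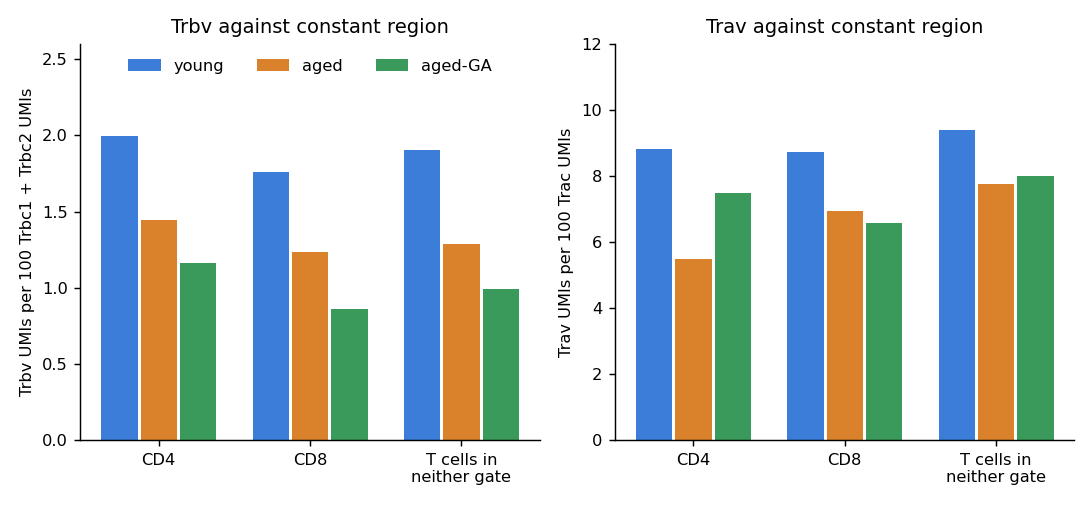
V segment UMIs per 100 constant region UMIs (bars from 0; 1 library per bar) in CD4 T cells, CD8 T cells and T cells in neither gate, for Trbv against Trbc1 and Trbc2 (left) and Trav against Trac (right). Trbv falls from young to aged to aged-GA in all 3 sets of cells, down to 0.860 in aged-GA CD8 T cells, while Trav is lowest in the aged library in CD4 T cells at 5.48.

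By UMIs, Trbv12-2 and Trbv2 (V beta 4) led beta chain usage in CD4 T cells of every library, and Trbv12-2 led it in CD8 T cells. Whether all segments are captured alike was not tested. Nor was it tested whether every Trbv12-2 UMI came from the expressed chain, and the segment was frequent in cells with 2 segments (below). Trbv2 made up 18.3% of the Trbv UMIs in CD4 T cells of the young library (59 UMIs in 43 cells), 20.1% of those in the aged (27 UMIs in 22 cells) and 19.1% of those in the aged-GA library (36 UMIs in 31 cells). Its share in CD4 T cells was thus alike in the 3 libraries, with a log2 ratio of 0.14 for aged over young by UMIs and by cells (interval from cells -0.53 to 0.80). Among CD8 T cells Trbv2 took 6.38%, 12.9% and 9.30%, and in the young library Trbv19, Trbv15 (7.69%) and Trbv3 were above it. Trbv12-2 was first in CD8 T cells of each library, at 18.6% (99 UMIs in 84 cells), 15.6% (23 UMIs in 22 cells) and 22.5% (58 UMIs in 53 cells) in young, aged and aged-GA.

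In CD4 T cells the share of Trbv12-2 was 12.4% (40 UMIs in 34 cells), 17.2% (23 UMIs in 22 cells) and 23.9% (45 UMIs in 44 cells) in that order. Aged-GA over young was 0.95 on the log2 scale, with an interval from 0.37 to 1.53 by cells, the only Trbv segment of the 5 with at least 30 UMIs whose interval left out 0 in that comparison. Such intervals were not taken over all genes, so this count has no background. The level of Trbv12-2 was 6.41, 5.75 and 6.40 CPM. The other Trbv segments summed to 45.3, 27.7 and 20.3 CPM. The larger share of Trbv12-2 therefore stood beside a lower level of the other segments and a level of its own that overlapped within the counting error (4.58 to 8.73 CPM in young, 4.67 to 8.56 in aged-GA). In CD8 T cells Trbv12-2 was at 7.56, 3.51 and 3.53 CPM and the other segments at 33.1, 18.9 and 12.2 CPM, so there both were lower than in the young library.

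The next segments were Trbv19 (V beta 6), Trbv3 and Trbv13-2 (V beta 8.2). Trbv19 had 10.8%, 5.97% and 7.45% of the Trbv UMIs in CD4 and 9.01%, 9.52% and 5.81% in CD8 T cells of the 3 libraries. Trbv3 had 11.1%, 11.2% and 5.85% in CD4 and 6.94%, 4.08% and 6.98% in CD8 T cells. Trbv13-2 had 4.95%, 7.46% and 7.45% in CD4 and 4.69%, 2.72% and 8.14% in CD8 T cells. Among the segments linked to invariant T cells, Trbv13-1 and Trbv13-3 held 72 and 58 UMIs in all, Trbv29 held 74 and Trbv1 held 62. Trav1, whose sequence is unique, held 15 UMIs, of which 5 each came from aged-GA CD4 and young CD8 T cells and 0 from young and aged CD4 T cells.

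Alpha chain usage was spread over more segments. The leading Trav segment of CD4 T cells was another one in each library. These were Trav6-7-dv9 in the young (21 UMIs in 17 cells, 6.42% of the Trav UMIs), Trav5-4 in the aged (12 UMIs in 8 cells, 9.76%) and Trav14-2 in the aged-GA library (20 UMIs in 13 cells, 7.25%). Their intervals by cells were wide (4.18 to 11.1%, 3.63 to 15.6% and 3.77 to 11.7%). Trav6-7-dv9 stayed among the leading 5 with 5.69% in the aged and 4.71% in the aged-GA library.

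Segments of the Trav14 subgroup were among the leading ones. Trav14-2 had 15, 1 and 20 UMIs in CD4 and 12, 4 and 18 in CD8 T cells of the young, aged and aged-GA libraries. Trav14-1 had 18, 4 and 2 in CD4 and 10, 4 and 13 in CD8 T cells, and Trav14-3 had 14, 0 and 14 and 8, 3 and 4. Trav14d-3-dv8 had 17, 3 and 11 in CD4 and 14, 7 and 7 in CD8 T cells, and Trav14n-3 had 18, 3 and 10 and 19, 3 and 8. Among CD4 T cells 4 of these 5 were lowest in the aged library, the set with the fewest Trav UMIs (123), and Trav14-1 was lowest in the aged-GA library. Of these segments Trav14-1 had 95.1% of its windows to itself and the others 43.3% to 61.2%.

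Among those with at least 30 UMIs over both libraries, Trav14-2 had log2 ratios of aged-GA over young of 0.66 by UMIs and 0.37 by cells (-0.71 to 1.44) in CD4 and of 0.99 and 0.76 (-0.41 to 1.92) in CD8 T cells. Trav6-7-dv9 gave -0.45 and -0.55 by cells (-1.68 to 0.58) in CD4 and 0.41 and 0.28 (-0.71 to 1.27) in CD8 T cells. Each of these intervals held 0. Trav16n led CD8 T cells of the young (9.73%) and aged libraries (11.8%), and Trav16 those of the aged-GA library (14.3%). Intervals were not taken over all genes, so a count of those that leave out 0 has no background here. For aged-GA over young in CD8 T cells, 3 of 7 Trav segments had an interval that left out 0. These were Trav16 (0.79 by UMIs, 0.94 by cells, 0.28 to 1.61), Trav12-2 (0.87 and 0.85, 0.006 to 1.70) and Trav13-1, given below. The near copy Trav16n was at -0.19 by UMIs, and with Trav copies merged by subgroup the log2 ratio of Trav16 was 0.295. For Trav12-2, 28 of 29 aged-GA UMIs lay in cells with at least 2 UMIs of Ccl5, a gene of memory and effector T cells. In the young library 17 of 21 lay in cells with no Ccl5 UMI. Without Ccl5 cells the log2 ratio of Trav12-2 was -2.42. In CPM the log2 ratios of Trav16 and Trav12-2 were 0.05 and 0.14. In CD8 T cells Trav3-3 had 26, 12 and 15 UMIs (5.38%, 6.74% and 4.12%), and Trav10 had 10, 0 and 6 there against 5, 8 and 5 in CD4 T cells.

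**Figure D3:**
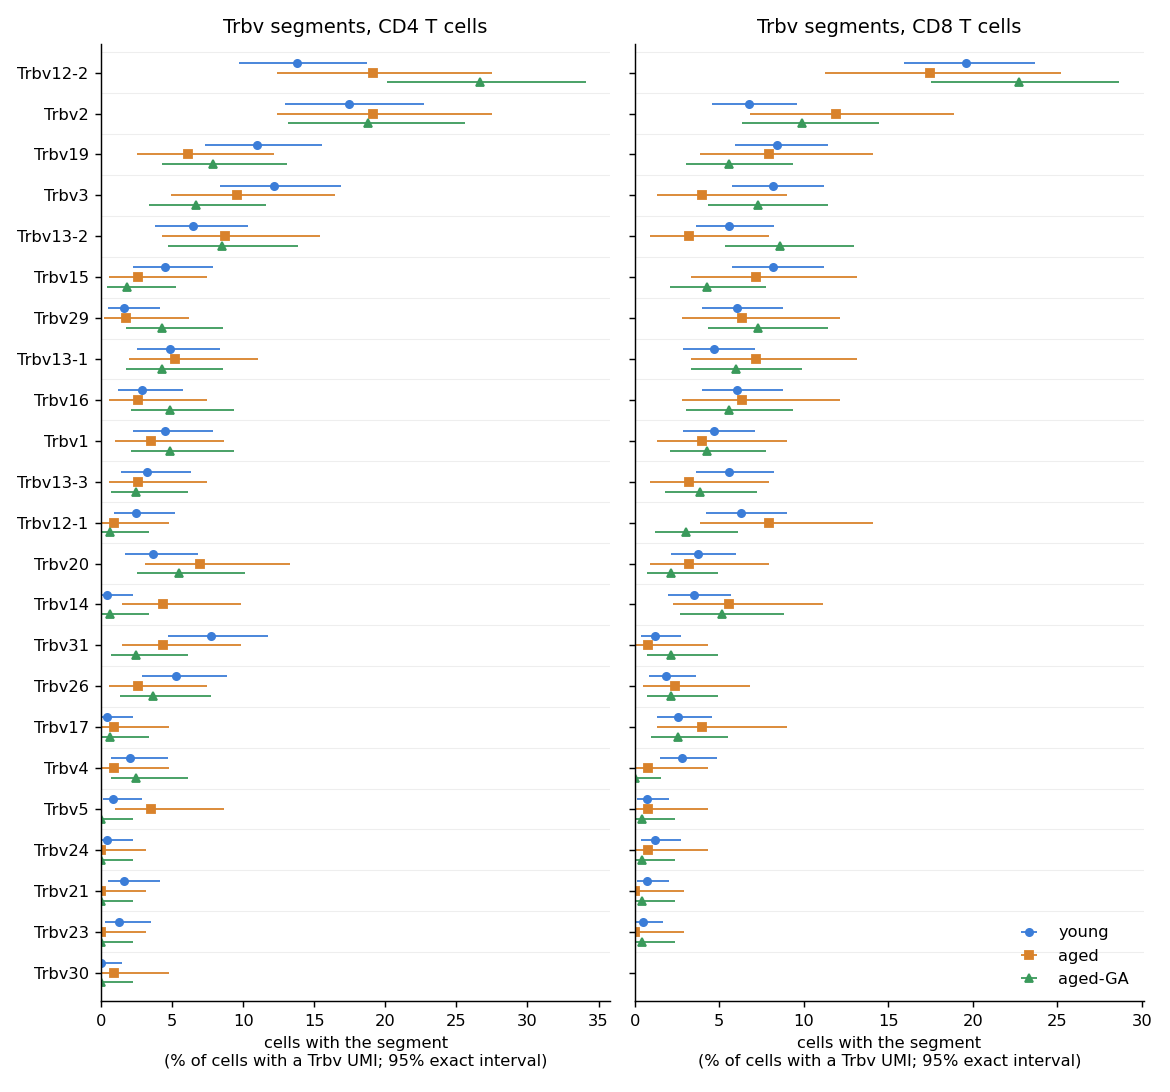
Share of the cells with a Trbv UMI that held each Trbv segment (horizontal axis, %; bars are exact 95% binomial intervals) in CD4 (left) and CD8 T cells (right) of the young, aged and aged-GA libraries, ordered by total UMIs. In CD4 T cells Trbv12-2 and Trbv2 lead in each library, whereas in CD8 T cells Trbv12-2 leads and Trbv2, at 6.76% in the young library, lies beside Trbv19 at 8.39%.

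Few segments changed their share by 2-fold between libraries. Among segments with at least 30 UMIs over both libraries, 0 of 4 passed 2-fold in CD4 T cells for aged over young, 0 of 2 for aged-GA over aged and 0 of 7 for aged-GA over young. The background, all genes at the same minimum past 2-fold in CPM either way, was 15.7%, 2.6% and 14.6%. Among genes with no more UMIs than the segments it was 30.6%, 10.5% and 29.8%. In CD8 T cells 1 of 13 passed for aged over young, 1 of 6 for aged-GA over aged and 2 of 19 for aged-GA over young, against a background of 12.5%, 2.74% and 11.7%, or 25.8%, 12.6% and 26.2% among genes with no more UMIs. These backgrounds are in CPM and the segment counts in share of the family. On the CPM scale the counts were 1 of 4, 0 of 2 and 2 of 7 in CD4 T cells and 3 of 13, 1 of 6 and 11 of 19 in CD8 T cells, in the same order of comparisons. Of the 11, 9 were Trbv segments that were lower in the aged-GA library.

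The segments past 2-fold in CD8 T cells were Trbv2, Trbv12-1 and Trav13-1. Trbv2 was at 6.38% in the young and 12.9% in the aged library, a log2 ratio of 1.02 by UMIs and 0.82 by cells (-0.04 to 1.67). Trbv12-1 was at 5.63%, 6.80% and 2.71%, and its log2 ratio of aged-GA over young was -1.05 by UMIs and -1.07 by cells (-2.24 to 0.11). Both intervals held 0. Trav13-1 had 9 UMIs in 8 young cells, 4 UMIs in 2 aged cells and 29 UMIs in 20 aged-GA cells, which are 1.86%, 2.25% and 7.97% of the Trav UMIs. The log2 ratio of aged-GA over young was 2.10 by UMIs and 1.70 by cells (0.54 to 2.86), and that of aged-GA over aged was 1.83 and 2.28 (0.20 to 4.36). Both cell intervals left out 0, but the aged value rests on 2 cells. Under the processing alternatives the log2 ratio ran from 0.38 to 2.56 for aged-GA over young and from 0.69 to 3.63 for aged-GA over aged. Trav13-1 had 54.6% of its windows to itself, and its copies Trav13d-1 and Trav13n-1 each differed at 7 of the last 120 coding bases. Of the 20 aged-GA cells, 13 had at least 2 UMIs of Ccl5, a share like the 66.6% of all aged-GA CD8 T cells. Merging by subgroup pools all segments whose name starts with Trav13, distinct genes as well as these copies. The log2 ratio of aged-GA over young was then 0.38. A merge of Trav13-1 with its copies alone was not tested. In CD4 T cells Trav13-1 took 4.28%, 4.88% and 2.54% of the Trav UMIs.

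On the CPM scale the Trbv family as a whole was lower in the older libraries. For CD8 T cells, 12 of 12 Trbv segments with at least 30 UMIs were lower in aged-GA than in young and 9 of them by at least 2-fold, with a median log2 ratio of -1.40. Over all genes at this minimum 1.65% were lower by 2-fold (3.93% of those with no more UMIs than the segments) and the median was 0.27 (0.27 to 0.32 in the 4 comparisons with the young library). For aged over young, 8 of 9 were lower, 3 by 2-fold (background 1.84%, or 4.37% of genes with no more UMIs), with a median of -0.81. In CD4 T cells the medians were -0.55 over 4 segments for aged over young and -0.89 over 5 for aged-GA over young, and 1 and 2 segments passed 2-fold downwards (background 2.22% and 1.61%, or 4.89% and 4.23% of genes with no more UMIs). Segments of 1 family share the receptor transcripts and are not independent of each other.

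Some segments had a higher share in CD4 or in CD8 T cells in all 3 libraries. Of 17 Trbv segments with at least 30 UMIs in all, 8 had a higher share in CD8 T cells in 3 of 3 libraries and 3 in CD4 T cells. Of all genes at this minimum, 14.3% were higher in CPM in CD8 and 41.7% in CD4 T cells in 3 of 3 libraries. This background is in CPM and was not restricted to genes with as few UMIs as the segments. On the CPM scale the Trbv counts became 4 in CD8 and 8 in CD4 T cells, near that background for 17 segments. Trbv13-1, Trbv13-3, Trbv14 and Trbv16 lost the CD8 direction in at least 1 library. Of the 17, 4 had a share at least 1.5-fold higher in CD8 T cells in 3 of 3 libraries (Trbv12-1, Trbv15, Trbv17 and Trbv29) and 1 in CD4 T cells (Trbv2). Of 20 Trav segments, 3 were higher by this measure in CD8 (Trav16, Trav16n and Trav12-2) and 1 in CD4 T cells (Trav4-3). By direction alone, 5 of the 20 had the higher share in CD8 and 5 in CD4 T cells in 3 of 3 libraries. In CPM these counts were 4 in CD8 and 6 in CD4 T cells. Trav4-4-dv10, at 2 UMIs in CD4 and 0 in CD8 T cells of the aged library, was counted for CD4 by share but had no ratio there in CPM. Among all genes at this minimum 2.35% were 1.5-fold higher in CPM in CD8 and 6.05% in CD4 T cells in all libraries. On the CPM scale the balance of the Trbv segments past this fold turned, to 2 in CD8 (Trbv12-1 and Trbv17) and 3 in CD4 T cells (Trbv2, Trbv26 and Trbv31). For Trav it became 2 in CD8 (Trav16 and Trav12-2) and 2 in CD4 T cells (Trav4-3 and Trav14n-3). Of the segments past the fold by share, Trbv15, Trbv29 and Trav16n were lower in CD4 T cells in 3 of 3 libraries by a smaller margin in at least 1. Trbv14, Trbv16, Trbv17 and Trbv26 were named after their values were seen.

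The log2 ratio of the CD4 over the CD8 share of Trbv2 was 1.52 (interval by cells 0.72 to 2.01), 0.64 (-0.19 to 1.56) and 1.04 (0.21 to 1.65) in the young, aged and aged-GA libraries. For Trbv12-1 it was -1.18 (-2.63 to -0.12), -3.19 (-6.13 to -0.25) and -2.35 (-5.32 to 0.70), from 8, 1 and 1 UMIs in CD4 against 30, 10 and 7 in CD8 T cells. Its near copy Trbv12-2, with the 5 differing bases above, gave -0.58, 0.13 and 0.09, with no common direction. Trbv29 gave -2.36, -2.04 and -0.91, from 4, 2 and 7 UMIs in CD4 against 34, 9 and 18 in CD8 T cells. Trbv31 had 21, 5 and 5 UMIs in CD4 and 5, 1 and 5 in CD8 T cells, with log2 ratios of 2.79, 2.46 and 0.46. Trbv26 (1.55, 0.13 and 0.72) was also above 0 in each library.

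Among alpha segments, Trav16 gave -1.44 (-2.28 to -0.05), -1.79 (-3.31 to 0.26) and -1.60 (-3.06 to -0.81) in young, aged and aged-GA. Its copy Trav16n gave -1.67, -2.86 and -0.97. Both copies thus had the higher share in CD8 T cells in 3 of 3 libraries. Trav12-2 had 3, 0 and 1 UMIs in CD4 against 21, 11 and 29 in CD8 T cells. With 3 libraries the smallest two-sided p of an exact permutation test over libraries is 0.25, so no such split could pass a threshold, and the values are a description.

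The profile of beta usage as a whole was compared next. The share of Trbv usage that differed (the summed absolute differences in share divided by 2) was 15.7% to 22.9% between libraries for the same class and 28.3%, 30.2% and 19.9% between CD4 and CD8 T cells of the young, aged and aged-GA libraries. Across both class and library it was 25.05% to 31.7%. The aged-GA library, where the classes were closest, lay within the range between libraries. For Trav, with more segments and fewer UMIs for each, the same-class values ran from 27.3% to 46.9% and the values within a library from 37.4% to 54.0%. Few UMIs raise this measure even when usage is the same, and no common number of UMIs was taken. How much of these values is counting error was not tested.

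**Figure D4:**
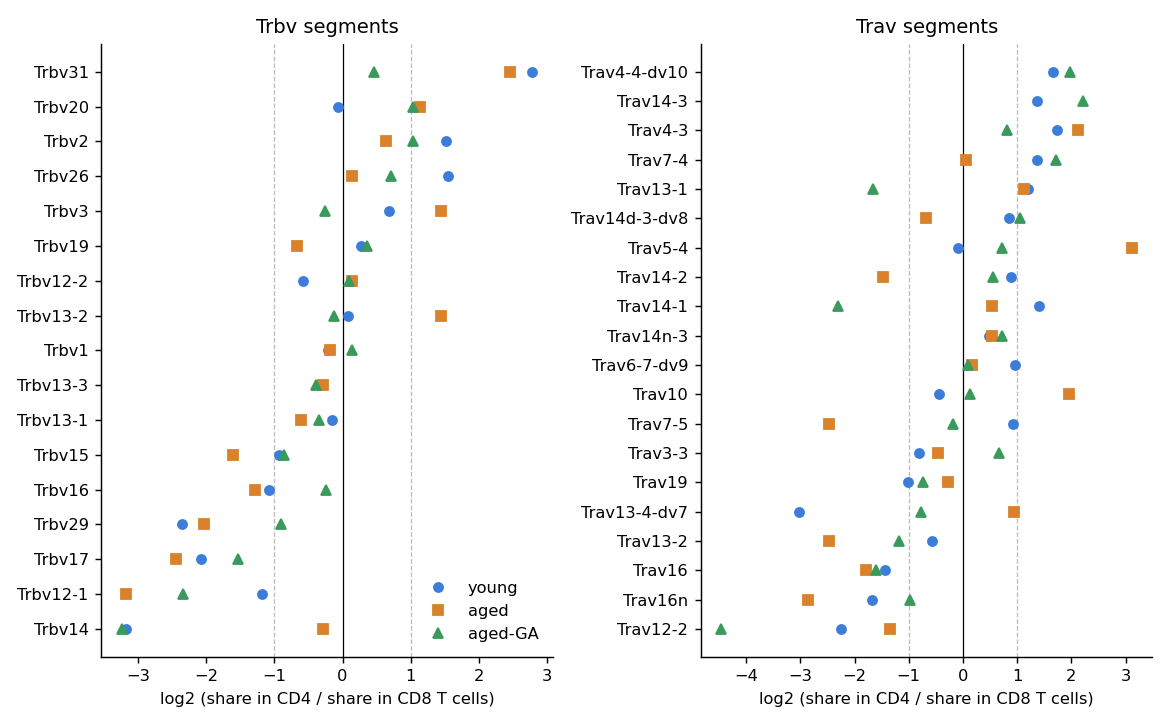
Log2 ratio of a segment's share of family UMIs in CD4 over CD8 T cells of the same library, for Trbv (left) and Trav segments (right) with at least 30 UMIs in all. Each symbol is 1 library, dashed lines mark 2-fold, and a class at 0 UMIs is set to a floor of 3. No symbol is drawn where 1 class is at 0 UMIs and the other at or under the floor. Trbv2 lies to the right of 0 in 3 of 3 libraries, and Trbv12-1, Trbv29, Trav16 and Trav16n lie to the left.

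Evenness was measured as the Shannon entropy of usage over its largest possible value for the 23 Trbv or 78 Trav segments found in any library, so that 1 means equal use of all of them and lower values mean that a few dominate. From summed UMIs, Trbv evenness in CD4 T cells was 0.850, 0.817 and 0.782 in the young, aged and aged-GA libraries, which correspond to 14.4, 12.9 and 11.6 equally used segments. The CD8 values were 0.883, 0.861 and 0.848. The order young, aged, aged-GA held in both classes, but in CD8 T cells the aged-GA value was above the aged one without Trbv12-2 (by 0.0174) and without doublets (by 0.0028). The aged-GA minus young difference was -0.068 in CD4 (95% interval -0.122 to -0.014) and -0.036 in CD8 T cells (-0.075 to 0.003). For aged minus young it was -0.034 (-0.089 to 0.022) and -0.022 (-0.064 to 0.020), and for aged-GA minus aged -0.034 (-0.097 to 0.029) and -0.014 (-0.062 to 0.035), all of which held 0. The intervals take cells as the unit counted, since most UMIs of 1 cell come from 1 receptor.

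Evenness falls with fewer UMIs even when usage is the same, and the young library had the most. At a common number of 134 UMIs the expected Trbv evenness was 0.833, 0.817 and 0.776 in CD4 and 0.863, 0.859 and 0.835 in CD8 T cells. Young and aged CD8 T cells then differed by little, and the aged-GA library stayed lowest in both classes. Without Trbv12-2 the aged-GA minus young difference was -0.037 in CD4 (-0.094 to 0.021) and -0.023 in CD8 T cells (-0.057 to 0.010), and the CD4 interval then held 0. With the stricter gates the CD8 differences from young were larger, at -0.0991 for aged and -0.101 for aged-GA. These were not taken at a common number of UMIs, so fewer UMIs and less even usage cannot be told apart there. In T cells in neither gate, evenness at a common 122 UMIs was 0.841, 0.854 and 0.798, so the aged value was not below the young one there.

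Trav evenness was 0.851, 0.796 and 0.854 in the CD4 T cells and 0.864, 0.766 and 0.767 in the CD8 T cells of the 3 libraries. At a common number of 123 UMIs the expected values were 0.810, 0.796 and 0.816 in CD4 and 0.811, 0.751 and 0.730 in CD8 T cells. The aged minus young difference in CD4 T cells shrank from -0.055 to -0.014 with the common number. It turned to 0.063 when all segments of a subgroup were merged, distinct genes as well as copies. In CD8 T cells the aged minus young difference of -0.098 (-0.136 to -0.059) was -0.060 at the common number, and at that number 46.8, 36.8 and 36.8 Trav segments were expected in the young, aged and aged-GA libraries. CD8 T cells of both older libraries thus spread their assignable Trav UMIs over fewer segments than those of the young library.

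**Figure D5:**
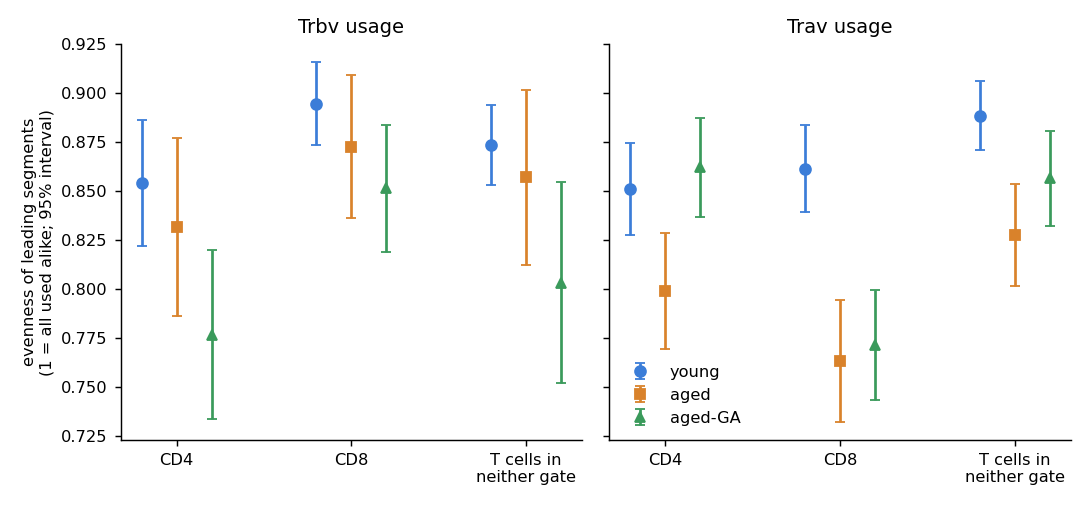
Evenness of usage (vertical axis, not starting at 0; 1 is equal use of all segments) with cells counted once by their leading segment, for Trbv (left) and Trav (right) in CD4 T cells, CD8 T cells and T cells in neither gate; bars are 95% intervals from cell counts of 1 library each. Trbv evenness steps down from young to aged to aged-GA in all 3 sets of cells with overlapping neighbours, and in CD8 T cells the young Trav interval lies above both others.

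The CD8 T cells also differed in their makeup. The summed level of 6 naive T cell genes was 2222, 1532 and 1552 CPM and that of 6 memory or effector genes 1603, 9976 and 8587 CPM. Ccl5, a chemokine gene of memory and effector T cells, had at least 2 UMIs in 17.1%, 59.8% and 66.6% of CD8 T cells and in 2.76%, 12.01% and 19.0% of CD4 T cells. Within CD8 T cells with at least 2 Ccl5 UMIs, Trbv evenness by cells was 0.853 (0.809 to 0.897), 0.800 (0.742 to 0.858) and 0.828 (0.786 to 0.870). Within those with none it was 0.890 (0.864 to 0.915), 0.865 (0.821 to 0.909) and 0.837 (0.788 to 0.886). Among CD8 T cells, those with Ccl5 thus had the lower Trbv point value in each library, with overlapping intervals. The young library was highest in both sets. Trav in CD8 T cells gave 0.759, 0.746 and 0.741 in Ccl5 cells and 0.849, 0.645 and 0.679 in those with none. Trav evenness was thus higher in Ccl5 cells of both older libraries. In each library the set with more Trav UMIs had the higher value. These were 110 in Ccl5 cells against 353 in those with none in young, 103 against 57 in aged and 253 against 67 in aged-GA. No common number of UMIs was taken here, so fewer UMIs and less even usage cannot be told apart. In CD4 T cells the Trav value was lower in Ccl5 cells of each library, and the Trbv value in those of the young and aged libraries. In young and aged, only 2 and 12 CD4 Ccl5 cells had a Trbv UMI, and 9 and 8 had a Trav UMI. Evenness over so few cells cannot reach the values of the cells with no Ccl5 UMI. No difference in usage can therefore be read from these sets. For Trav in aged-GA, 43 Ccl5 cells against 95 with none had a Trav UMI. Fewer cells and less even usage cannot be told apart there. Trbv in aged-GA CD4 T cells was higher in Ccl5 cells (0.802 against 0.724). The CD8 sets hold few UMIs (52 to 387), which lowers evenness, and the part of this makeup in the differences between libraries was not tested. Trbv12-2 was in 17.5% (9.91 to 27.6), 23.3% (13.4 to 36.0) and 24.1% (17.2 to 32.1) of the CD8 Ccl5 cells that had a Trbv UMI, with overlapping intervals. Among CD8 T cells with no Ccl5 UMI it was in 19.7% of such cells in young and 21.2% in aged-GA. In the aged library Trbv2 led that set with 5 UMIs, so Trbv12-2 held no more than that.

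Cells that share a receptor would share both chains. A leading Trav and a leading Trbv segment were read together in 51, 15 and 26 CD4 T cells and in 70, 29 and 29 CD8 T cells of the young, aged and aged-GA libraries. No pair was found in more than 2 cells. In CD4 T cells 1 pair was seen in 2 cells in the young and 1 in the aged-GA library. For CD8 T cells these were 2 pairs in the young library (Trav3-3 with Trbv12-2 and Trav16 with Trbv2) and 1 in the aged-GA library (Trav16 with Trbv29). The product of the shares of the 2 segments gives 0.691, 0.299 and 0.279 cells for these pairs. They were picked as the repeated ones of 68 pairs seen in young and 28 in aged-GA, so no shared receptor is read from them. In the aged library each pair occurred once. With 15 to 70 such cells per set and no junction read, clones of modest size were not detectable at this depth.

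Cells with UMIs of 2 Trbv segments made up 4.29% to 8.39% of the cells with any. Trbv12-2 was in 56 of these 90 cells (exact 95% interval 51.4 to 72.2%), against 203 of 1225 cells with 1 segment (14.5 to 18.8%). A cell with 2 segments has more than 1 chance to hold any given segment. If 2 different segments were drawn at the usage of the cells with 1 segment in the same library and class, 30.2% of the 90 cells would hold Trbv12-2. Its most frequent partners were Trbv13-2 and Trbv13-3 with 8 pairs each and Trbv19 with 7. In these 56 cells Trbv12-2 had 66 UMIs and the partners 67. Scrublet called 15.6% of the cells with 2 segments doublets and 8.16% of those with 1. Among T cells in neither gate Trbv12-2 was in 14 of 32 cells with 2 segments and in 117 of 671 with 1, where the same drawing gives 32.1% of the 32, within the interval of 26.4 to 62.3%. By library it was in 12 of 23, 2 of 4 and 0 of 5 of the cells with 2 segments. In B cells it had 4 of 18 Trbv UMIs. Whether every Trbv12-2 UMI came from the expressed beta chain was not tested.

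Of 22 other genes of the receptor complex and its signalling, 20 were in the gene list (the symbols Trgc1 and Trgc2 were not), and 15 to 17 had at least 100 UMIs in a comparison. For aged-GA over aged 0 of them passed 2-fold in CPM, where 0.293% of all genes with at least 100 UMIs were 2-fold higher and 0.439% lower in CD4 and 0.273% and 0.557% in CD8 T cells. For aged over young 1 of 16 was higher and 1 lower in CD4 (background 9.38% and 1.39%) and 1 of 17 higher and 0 lower in CD8 T cells (7.74% and 1.05%). For aged-GA over young the counts were 1 and 1 of 16 in CD4 (9.19% and 0.838%) and 1 and 1 of 17 in CD8 T cells (6.81% and 0.83%). The CD3 chains Cd3d, Cd3e and Cd3g, which carry the signal of the receptor, stayed between -0.34 and 0.13 on the log2 scale in every comparison. Both gates require UMIs of these genes, so their level was partly fixed by the gates. Trac, the alpha constant region, was at 595, 560 and 524 CPM in CD4 and 422, 391 and 337 CPM in CD8 T cells.

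The genes past 2-fold against the young library were few. Cd5, a surface inhibitor of receptor signalling, was at 87.3, 187 and 207 CPM in CD4 T cells, a log2 ratio of 1.10 for aged and 1.24 for aged-GA over young. Trdc, the delta constant region that lies within the alpha locus, was at 18.4, 3.50 and 3.41 CPM there (log2 ratios -2.40 and -2.43). Both older libraries were thus on the same side for each gene. Tcrg-C2, a gamma constant region, was at 2.52, 13.7 and 10.6 CPM in CD8 T cells. Trat1, an adaptor that binds the receptor complex, was at 21.3, 11.6 and 7.72 CPM in CD8 T cells, a log2 ratio of -1.46 for aged-GA over young and -0.88 for aged over young. Lat, the main adaptor below Zap70, was lower by less than 2-fold, with 526, 385 and 402 CPM in CD4 T cells, while Cd6 was higher, with 90.5, 162 and 156 CPM.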

How the data were processed

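The 3 groups, 1 library each, were profiled with a 10x Genomics 3′ version 3 kit on a DNBseq platform. The authors deposited UMI counts per gene and barcode from Cell Ranger (per the labels, build mm10; per the file headers, version 5.0.0; the methods name another version). The library totals were 58894294, 82260961 and 98155671 counts. Cells were kept by the limits in the methods: a minimum of 200 genes, a ceiling of 90% of the maximum gene number and of 7.5% mitochondrial counts. Doublets stayed in and were removed as an alternative with Scrublet (scanpy 1.11.5, score threshold 0.2 in every library, since the automatic threshold called 0 cells in aged-GA). A lone library per group allows no test between groups. Intervals at 95% are exact binomial or Poisson, and approximate for ratios and evenness. In ratios a count of 0 was set to 3. The text names the 5 segments with most UMIs per library, class and family, the 3 with the largest ratios up and down per comparison among those with at least 30 UMIs, segments of invariant T cells, Trbv31 and the other receptor genes. Members and lists were chosen with earlier results of these data known. Window uniqueness and sequences came from GENCODE M21 on GRCm38, the assembly of mm10, and older V beta names from RefSeq. CD4 T cells of the aged and aged-GA libraries shared 1 barcode sequence. The scripts were tested on simulated data.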

Additional observations from a re-analysis of the deposited data

Results flagged for a closer look

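The Trav evenness of aged-GA minus young was 0.0037 in CD4 and -0.097 in CD8 T cells, opposite in sign. The difference between the classes was not tested, and the CD4 interval (-0.031 to 0.038) held 0.

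T cells with no Cd4, Cd8a or Cd8b1 UMI entered no comparison between CD4 and CD8 T cells and still held V segment UMIs. A Trbv UMI was in 19.96% of them in the young, 12.2% in the aged and 10.2% in the aged-GA library, and a Trav UMI in 19.3%, 13.4% and 14.6%. In B cells these shares were at most 0.208%.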

How the results depend on the processing

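No paired analysis was possible because each group had 1 library, and for the same reason no replicate could be left out. The common number of UMIs and the removal of Trbv12-2 were chosen after seeing the data. Of the evenness differences under all alternatives, 105 moved by less than their counting interval, 13 moved further and 2 reversed from an interval that left out 0, and the cause was not tested. The sign changed in 13 of the 120, in these 2 and in 11 where the interval held 0. Of these 11, 5 were aged-GA minus aged for Trav in CD8, 3 aged-GA minus young for Trav in CD4, 2 aged-GA minus aged for Trbv in CD8 and 1 aged minus young for Trbv in CD8 T cells. With the stricter gates (0 UMIs of Cd79a, Cd79b, Lyz2 and Trdc), the aged minus young difference was -0.0991 (Trbv, CD8), -0.135 (Trav, CD4) and -0.158 (Trav, CD8), and aged-GA minus young was -0.101, -0.0376 and -0.169. The merging of Trav copies pooled all segments of a subgroup number, distinct genes as well as copies. With this coarser set the CD4 differences reversed to 0.0631 (aged minus young) and -0.0460 (aged-GA minus aged). With Simpson-based evenness, a scale of its own, Trav gave -0.0024 and 0.0024 for these 2 in CD4, and -0.0103 (aged minus young) and -0.0202 (aged-GA minus young) in CD8 T cells. At a common number of UMIs Trav in CD4 gave -0.0136 (aged minus young). Without Ccl5 cells Trav in CD8 gave -0.165 (aged minus young) and -0.143 (aged-GA minus young). Neither the stricter gates nor the removal of Ccl5 cells was combined with a common number of UMIs. Fewer UMIs and less even usage cannot be told apart in those values.

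Counts of segments past 2-fold were small, and they moved in 37 cases and not in 24. The number of segments that could be counted changes with the gates, the merging and the minimum of UMIs. No share over all genes was taken for the stricter gates, the merged copies or the minimum of 10 UMIs. A larger count there is therefore not read as more change. In CD4 T cells, aged over young went from 0 to 1 with the stricter gates, with merged copies and on CPM, and to 8 at a minimum of 10 UMIs. Aged-GA over aged went from 0 to 1 with merged copies and to 7 at 10 UMIs. Aged-GA over young went from 0 to 1 with no cell filter, no mitochondrial limit, cells counted once, merged copies or no Ccl5 cells, to 2 without doublets, with stricter gates or on CPM, and to 5 at 10 UMIs. In CD8 T cells, aged over young went from 1 to 3 with stricter gates or on CPM, 2 with merged copies, 8 at 10 UMIs, and 0 with cells counted once, at 100 UMIs or without Trbv12-2. Aged-GA over aged went from 1 to 0 without doublets, with stricter gates or with cells counted once, 2 with merged copies and 6 at 10 UMIs. Aged-GA over young went from 2 to 4 with no cell filter or no mitochondrial limit, 7 with stricter gates, 5 at 10 UMIs, 11 on CPM, 0 at 100 UMIs, and 1 with cells counted once, merged copies, no Ccl5 cells or no Trbv12-2. Among named segments, Trbv12-2 in CD4 (aged-GA over young) was -0.0026 on CPM, and Trav12-2 in CD8 (aged-GA over young) was -2.42 without Ccl5 cells. Where no segment passed a minimum there is no value. Depth limits the counts: 134 to 533 Trbv UMIs per set of cells.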
